A study of Homo sapiens with 25 samples.

Results

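CYP24A1, KLK7, EPN3, NIPAL2 and MKX are 5 of the 20044 protein-coding genes counted in RNA immunoprecipitations (RIP) of mCherry-IGF2BP1, and all 5 were among the 13515 genes tested. Their RNAs came down at a far lower level with both phosphomimetic proteins, S181E and Y396E, than with wild-type IGF2BP1, in each treatment, and at a level close to wild-type with the RQ mutant. They were chosen by that pattern, in the same libraries, on the TMM-scaled read count per line and treatment (CPM). CPM are reads relative to the scaled library total, which for the printed values counts protein-coding genes only. The comparisons of the mutants with wild-type are therefore a description of the 5 RNAs and carry no test for them. The arsenite response within each line and the comparison of Y396E with S181E were not themselves contrasts of the choice and were tested. Because the choice used ratios to wild-type in both treatments, likeness of the arsenite response between lines is partly built into it. Likeness of S181E and Y396E is partly built in too, since a low level was asked of both.

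The cells of the RIP lines were HCT116, a colon carcinoma cell line, carrying an inducible OsTIR1 gene and knockouts of IGF2BP2 and IGF2BP3. All 4 RIP lines shared this knockout background and expressed mCherry-IGF2BP1 from a lentivirus, as wild-type, S181E, Y396E or RQ, the last with arginines of linker 1 changed to glutamine. Each line was a population sorted within a narrow gate of mCherry, so every line stands for 1 sorted population, and the mCherry protein was captured on RFP-Trap beads. Cells received PBS as the control or 500 µM sodium arsenite for 2 h, with 3 libraries from independently plated dishes per line and treatment, 2 for RQ in arsenite, and 1 library per treatment from parental HCT116 cells without mCherry. The paper describes these control cells as not engineered, which also sets them apart from the knockout background of the 4 RIP lines. Total counts of the mCherry libraries ranged from 22246381 to 60273548, while the parental libraries held 1238013 counts in control and 18942497 in arsenite. The protein-coding counts of the mCherry libraries ranged from 13986350 to 37416271. IGF2BP1 itself had a mean of 66.4 CPM in the wild-type control libraries, 111 in RQ, 66.3 in S181E and 93.0 in Y396E. IGF2BP2 and IGF2BP3 RNA was still counted, with 183 and 154 CPM in wild-type arsenite libraries, so exon counts did not check the knockouts. Of 15 colon epithelial markers, 9 or 10 exceeded 1 CPM in each mCherry group, with KRT8, KRT18, KRT19 and CLDN4 over 100 CPM in every such group. CDX1, LGR5, ASCL2, CEACAM5 and VIL1 were at or near 0, whereas CDX2 had group means between 16.6 and 25.0 CPM. The summed level of all 15 markers ranged from 862 to 2796 CPM over the mCherry libraries.

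IGF2BP1 is an RNA-binding protein with RRM and KH domains joined by disordered linkers, and it is known for stabilizing mRNAs and for gathering them in ribonucleoprotein granules. The phosphomimetic changes put a negative charge at S181 in linker 1 or at Y396 in linker 2. Its KH domains are known to bind CA-rich elements, and GGAC is the core of the m6A-containing sites to which IGF2BP proteins have been linked. The 5 RNAs encode proteins of unrelated function. CYP24A1 is the mitochondrial hydroxylase that inactivates vitamin D and a classical target gene of the vitamin D receptor. KLK7 is a secreted chymotrypsin-like serine protease of the kallikrein family. EPN3 is an epsin, an adaptor of clathrin-coated membranes, and MKX (Mohawk) is a TALE homeobox transcription factor known from tendon. NIPAL2 belongs to the NIPA-like family of membrane proteins, whose relatives transport magnesium.

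The RNAs were compared by the motifs that IGF2BP proteins are known to bind, since the choice of the 5 did not use sequence. In the canonical transcripts, read on the transcript strand and scanned for GGAC and for CATA, CATC or CATT, each match counted even where it shared its last C with the next motif, the 5 RNAs had no motif density in common. NIPAL2 and MKX held 16.1 and 14.7 CAT-type motifs per kb, at percentiles 95.5 and 90.0 of the 13515 tested genes, whereas KLK7 and EPN3 held 5.12 and 5.93 per kb, at percentiles 5.40 and 9.05. CYP24A1 lay between them with 12.8 per kb. For GGAC, EPN3 stood highest with 6.96 per kb (percentile 88.7), NIPAL2 lowest with 2.27 per kb (percentile 19.9), and the other three were near the median of 3.77 per kb. The stretches below are the 60-base coding windows richest in these motifs, shown so that the motif content of the RNAs can be read, with GGAC and CAT-type motifs in capitals, 5′ to 3′ on the transcript strand and in hg38 coordinates. No window was taken for NIPAL2, because its chromosome was left out of this step. The CYP24A1 window is chr20:54157433-54157492 (minus strand, exon 10 of 12), the KLK7 window chr19:50979848-50979907 (minus strand, exon 5 of 6), the EPN3 window chr17:50536851-50536910 (plus strand, exon 2 of 10) and the MKX window chr10:27675276-27675335 (minus strand, exon 7 of 7).
CYP24A1, coding exon window: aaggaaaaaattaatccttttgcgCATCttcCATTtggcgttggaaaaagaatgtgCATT
KLK7, coding exon window: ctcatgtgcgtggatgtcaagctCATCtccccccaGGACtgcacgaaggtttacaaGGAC
EPN3, coding exon window: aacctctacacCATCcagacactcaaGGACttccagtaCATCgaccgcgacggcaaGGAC
MKX, coding exon window: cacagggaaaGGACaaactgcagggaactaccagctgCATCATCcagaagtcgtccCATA
The CYP24A1 window held 3 CAT-type motifs and no GGAC, the KLK7 window 2 GGAC and 1 CAT-type motif, the EPN3 window 2 of each, and the MKX window 1 GGAC and 3 CAT-type motifs, a pair of which share a C. These letters are a description and not mapped binding sites.

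CYP24A1 was the most abundant of the 5 RNAs, also per kb. With wild-type IGF2BP1 its control libraries gave 412, 458 and 465 CPM and its arsenite libraries 485, 478 and 490 CPM. RQ gave 368, 365 and 380 CPM in control and 455 and 467 CPM in arsenite, so the RQ libraries all lay below wild-type in each treatment, as did 5.62% of the genes tested in control and 17.6% in arsenite. S181E gave 195, 153 and 161 CPM in control and 161, 153 and 156 CPM in arsenite, and Y396E gave 153, 146 and 179 CPM in control and 138, 118 and 131 CPM in arsenite. The highest phosphomimetic library, at 195 CPM, lay far under the lowest wild-type or RQ library, at 365 CPM. The S181E and Y396E means were 38.1 and 35.8% of wild-type in control, and 32.4 and 26.7% in arsenite.

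KLK7 libraries of a group lay close together. Wild-type gave 146, 151 and 132 CPM in control and 125, 121 and 123 CPM in arsenite, and RQ gave 159, 152 and 136 CPM in control and 122 and 124 CPM in arsenite. The wild-type and RQ values overlapped in each treatment. S181E gave 59.7, 62.3 and 60.4 CPM in control and 53.4, 48.9 and 54.0 CPM in arsenite, and Y396E gave 44.3, 46.4 and 49.9 CPM in control and 41.6, 43.1 and 41.1 CPM in arsenite. Every Y396E library lay below every S181E library of the same treatment, as did 13.3% of the genes tested in control and 21.5% in arsenite. The means were 42.6 and 32.8% of wild-type for S181E and Y396E in control, and 42.3 and 34.0% in arsenite.

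EPN3 was low in control and higher in arsenite in each line. Wild-type gave 50.3, 39.8 and 55.8 CPM in control and 112, 105 and 106 CPM in arsenite, and RQ gave 38.4, 30.3 and 41.4 CPM in control and 109 and 98.0 CPM in arsenite. S181E gave 14.3, 15.1 and 14.4 CPM in control and 35.4, 29.5 and 37.0 CPM in arsenite, and Y396E gave 21.7, 15.7 and 15.7 CPM in control and 31.3, 35.4 and 36.4 CPM in arsenite. The arsenite libraries of the phosphomimetic proteins did not reach the lowest wild-type control library. The S181E and Y396E means were 30.0 and 36.4% of wild-type in control, and 31.6 and 31.9% in arsenite, and the RQ control mean was 75.6% of wild-type with overlapping libraries.

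NIPAL2 gave 98.7, 83.7 and 115 CPM with wild-type in control and 83.7, 69.3 and 90.4 CPM in arsenite. RQ gave 108, 95.1 and 106 CPM in control and 76.2 and 66.4 CPM in arsenite, within or near the wild-type range. S181E gave 34.9, 33.8 and 40.6 CPM in control and 29.1, 27.0 and 28.8 CPM in arsenite, and Y396E gave 26.0, 25.7 and 31.7 CPM in control and 19.7, 18.6 and 20.3 CPM in arsenite. As for KLK7, the Y396E libraries all lay below the S181E libraries of the same treatment. The S181E and Y396E means were 36.7 and 28.0% of wild-type in control, and 34.9 and 24.1% in arsenite.

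MKX was the lowest of the 5 RNAs relative to wild-type. Wild-type gave 38.4, 51.5 and 72.8 CPM in control, the widest relative spread of the 5 RNAs, and 22.6, 24.9 and 25.5 CPM in arsenite, and RQ gave 57.3, 52.4 and 70.8 CPM in control and 25.7 and 22.5 CPM in arsenite. S181E gave 11.6, 12.2 and 16.2 CPM in control and 6.86, 4.68 and 7.20 CPM in arsenite, and Y396E gave 11.7, 9.36 and 14.1 CPM in control and 5.10, 6.02 and 4.79 CPM in arsenite. The S181E and Y396E means were 24.6 and 21.6% of wild-type in control, and 25.7 and 21.8% in arsenite, while RQ stood at 111 and 98.9%.

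**Figure D1:**
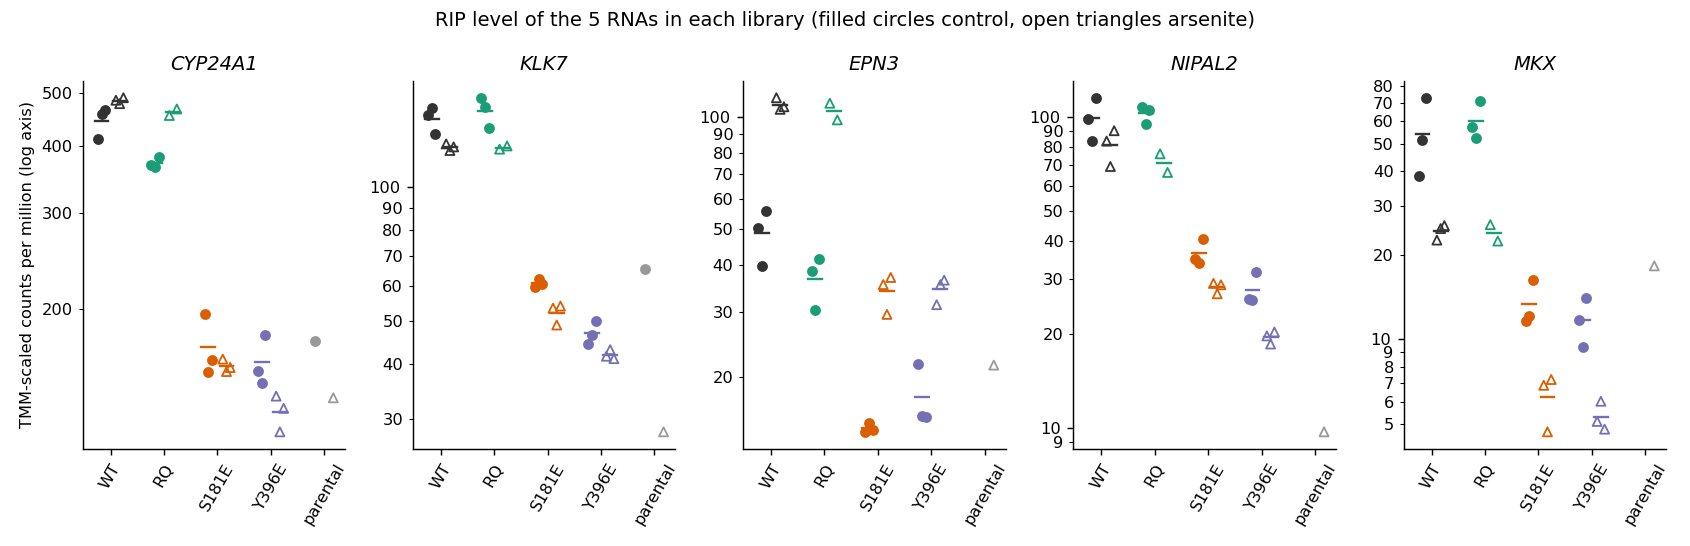
RIP level of CYP24A1, KLK7, EPN3, NIPAL2 and MKX in every library, in TMM-scaled CPM on a log axis, by line; filled circles are control libraries, open triangles arsenite libraries and short lines the group means, and the parental control libraries of EPN3, NIPAL2 and MKX, at 0, are not drawn. All S181E and Y396E libraries sit below all wild-type and RQ libraries of the same treatment, and the CYP24A1 phosphomimetic libraries lie near the 174 and 137 CPM of the parental cells.

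For each of the 5 RNAs, all phosphomimetic libraries lay below all wild-type libraries in each of the 4 comparisons, which by itself is what the choice asked for. Across all genes tested, 444 of 13515 (3.29%) did the same. The median log2 ratio of the 5 RNAs to wild-type was -1.45 in S181E control, -1.63 in S181E arsenite, -1.61 in Y396E control and -1.91 in Y396E arsenite, against medians of 0.03, 0.01, 0.03 and 0.00 over the genes tested. In RQ it was 0.05 in control and -0.06 in arsenite. In bulk lysates, fewer cells holding an RNA, less of it per cell and less of it bound to IGF2BP1 cannot be told apart, and RNA-seq of the input was not analysed here.

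Levels can be set against each other only per kb of counted exon. On that scale the wild-type control libraries gave CYP24A1 116 to 130 CPM per kb, KLK7 62.2 to 71.3, NIPAL2 18.3 to 25.2, MKX 9.99 to 18.9 and EPN3 10.3 to 14.4. CYP24A1 and KLK7 stood apart from the rest, whereas the ranges of NIPAL2 and MKX, and of MKX and EPN3, overlapped.

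The 5 RNAs belonged to the low end of a wider distribution and were not its extreme. Among 8194 genes with a mean over 10 CPM in the wild-type libraries of each treatment, 29 (0.354%) had a log2 ratio to wild-type of -1 or lower in all 4 phosphomimetic comparisons with RQ within 2-fold, and the 5 RNAs were among them. Under the same limits, only 2 genes, DKK1 and SYTL2, were at least 2-fold higher in all 4. By the median of the 4 log2 ratios, PROM2 (-2.44), HTR7 (-2.33) and KLK5 (-2.11) lay at or below MKX (-2.11), and KLK7 (-1.40) was the highest of the 5. Just inside the criterion were MROH6, with log2 ratios between -1.20 and -1.01, and PDE7A, and just outside were PLBD2, whose S181E control ratio was -0.98, and NR4A3, whose S181E arsenite ratio was -0.98. A log2 ratio of -2 or lower in all 4 comparisons was met by PROM2 and HTR7 and by none of the 5 RNAs. Among the genes tested that were not over 10 CPM, ZC4H2, FOXH1 and ZNF91 also met it, from wild-type means between 0.35 and 8.44 CPM.

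**Figure D2:**
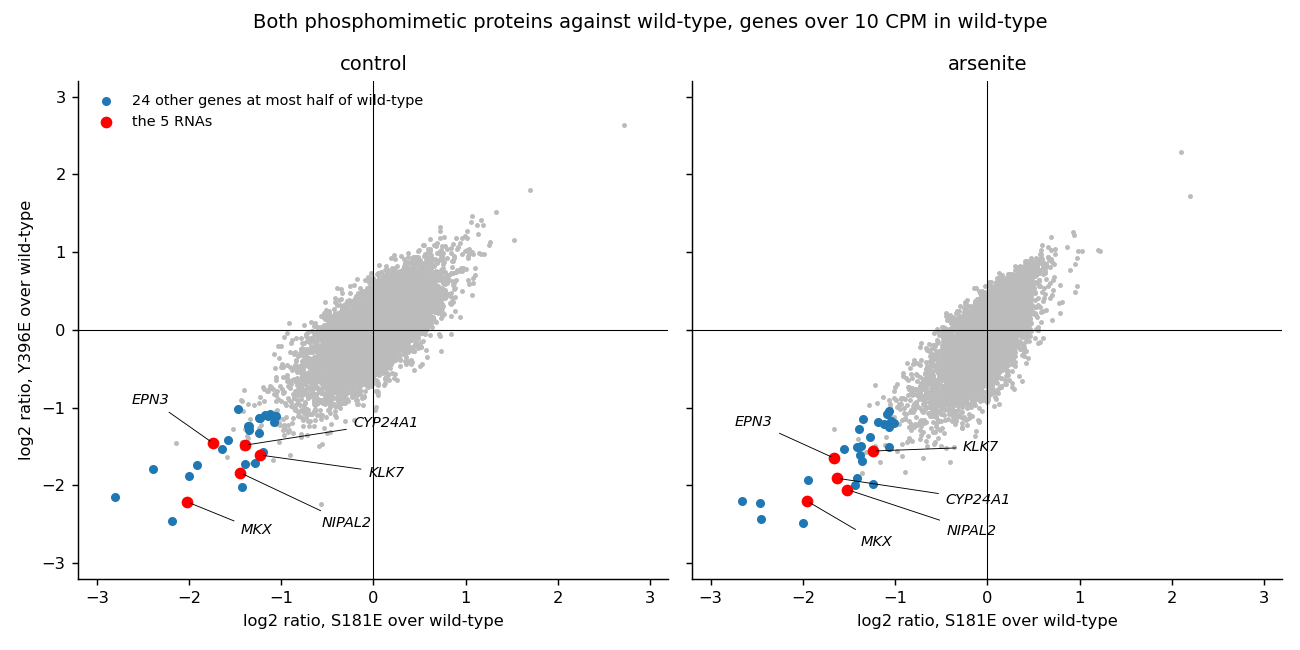
Log2 ratio of mean CPM to wild-type for S181E (horizontal) and Y396E (vertical), in control (left) and arsenite (right), for the 8194 genes over 10 CPM in wild-type; red points are the 5 RNAs and blue points the 24 other genes at a log2 ratio of -1 or lower in all 4 comparisons. The 5 RNAs lie in the lower left, with MKX lowest among them, and both axes share the same wild-type libraries.

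Arsenite changed EPN3 and MKX in opposite directions in every line. In edgeR's quasi-likelihood test, where a call needs both an adjusted p below 0.05 and a difference above 20%, EPN3 rose in wild-type by 1.14 on the log2 scale (SE 0.14, adjusted p = 2.8e-07), in RQ by 1.49 (adjusted p = 1.7e-08), in S181E by 1.20 (adjusted p = 2.3e-07) and in Y396E by 0.96 (adjusted p = 5.5e-06). Of the genes tested, 27.7% were called higher in arsenite in wild-type, 24.2% in RQ, 25% in S181E and 23.1% in Y396E. The arsenite libraries of EPN3 all lay above the control libraries in each line, as did those of 30.8% of the genes tested in wild-type, 34.4% in RQ, 31.7% in S181E and 31.6% in Y396E. The fitted rise corresponds to 2.29-fold in S181E, 1.94-fold in Y396E, 2.20-fold in wild-type and 2.81-fold in RQ. Likeness between lines was partly built into the choice, which used the ratios to wild-type in both treatments. The differences between lines were not tested.

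MKX fell in arsenite in all 4 lines. Its log2 fold change was -1.16 in wild-type (SE 0.20, adjusted p = 3.2e-05), -1.32 in RQ (adjusted p = 4.1e-05), -1.12 in S181E (adjusted p = 0.00012) and -1.15 in Y396E (adjusted p = 8.6e-05). Of the genes tested, 24% were called lower in wild-type, 22.9% in RQ, 25.1% in S181E and 24.2% in Y396E. Every arsenite library of MKX lay below every control library of its line, as held for 24.1, 30.4, 28.3 and 31.2% of the genes tested in the same order of lines. The calls of EPN3 and MKX held under each of the alternatives tried. The parental arsenite library, without mCherry protein, held 21.6 CPM of EPN3 and 18.3 CPM of MKX. The shallow parental control library held no count of either, and these levels were not subtracted.

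NIPAL2 was lower in arsenite to a smaller extent. It fell by 0.50 on the log2 scale in Y396E (SE 0.13, adjusted p = 0.0023), by 0.54 in RQ (adjusted p = 0.0031) and by 0.39 in S181E (adjusted p = 0.015). In wild-type the change was -0.30 (adjusted p = 0.049), the libraries of both treatments overlapped, and the call was lost without wild-type control library 1 or 3 or wild-type arsenite library 1 or 2, with adjusted p up to 0.26. The S181E call was lost without S181E arsenite library 2 or control library 3, and the RQ call without RQ arsenite library 2. The Y396E call held in each alternative. For comparison, 24% of the genes tested were called lower in wild-type, 22.9% in RQ, 25.1% in S181E and 24.2% in Y396E.

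KLK7 and CYP24A1 changed little in arsenite. KLK7 was called lower in RQ (log2 fold change -0.28, SE 0.10, adjusted p = 0.025), a call lost without RQ control library 1 or 2 or either RQ arsenite library. KLK7 was not called in wild-type (-0.22, adjusted p = 0.042) and S181E (-0.25, adjusted p = 0.028), where the difference stayed under 20%, nor in Y396E (-0.16, adjusted p = 0.17), although its arsenite libraries lay below its control libraries in all 4 lines. The same held for 24.1% of the genes tested in wild-type, 30.4% in RQ, 28.3% in S181E and 31.2% in Y396E. CYP24A1 was called higher in RQ (log2 fold change 0.31, SE 0.11, adjusted p = 0.020) and lower in Y396E (-0.30, SE 0.10, adjusted p = 0.013). In wild-type (0.11, adjusted p = 0.35) and S181E (-0.14, adjusted p = 0.25) it was not called. The RQ call was lost without either RQ arsenite library, and the Y396E call without Y396E arsenite library 2 or control library 3. In RQ, 22.9% of the genes tested were called lower in arsenite and 24.2% higher, and in Y396E 24.2% were called lower.

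**Figure D3:**
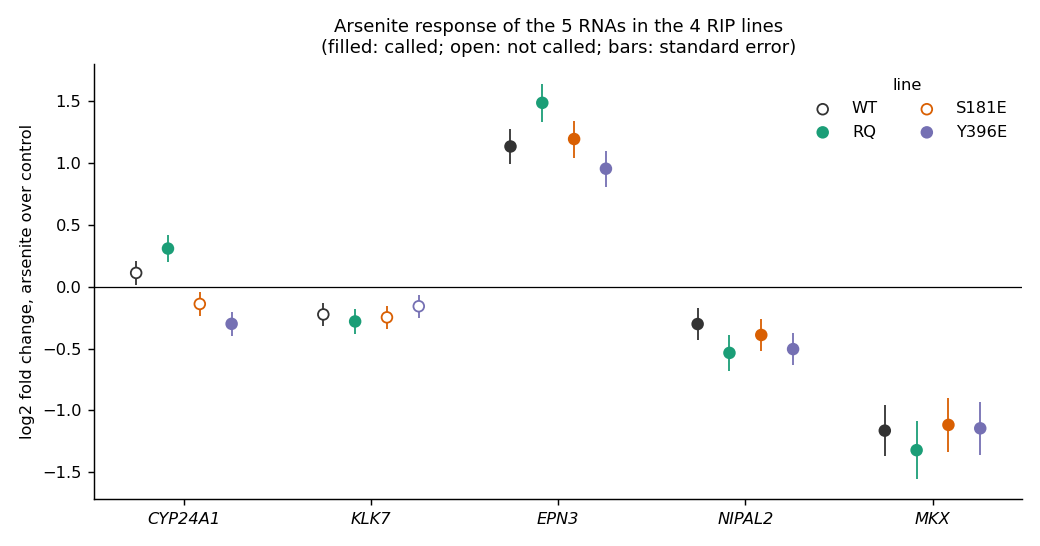
Log2 fold change of arsenite over control (edgeR, bars are standard errors) for the 5 RNAs in the wild-type (WT), RQ, S181E and Y396E lines; filled points are called and open points are not. EPN3 lies between 0.96 and 1.49 and MKX between -1.32 and -1.12 in all 4 lines, and CYP24A1 is above 0 in WT and RQ and below 0 in S181E and Y396E.

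The phosphomimetic proteins were also set against each other, a contrast the choice did not use directly. The choice asked for a low level with both proteins, so likeness between them is partly built in. The p-values of this comparison are therefore not independent of the choice. In control, KLK7 was lower with Y396E than with S181E by -0.37 on the log2 scale (SE 0.09, adjusted p = 0.021), in a comparison where 3.23% of the genes tested were called lower. The KLK7 call was lost without S181E control library 1 or 3 or Y396E control library 1 or 2, with adjusted p up to 0.12. Over genes above 10 CPM, same-numbered libraries of this comparison deviated together. With the replicate number as a block KLK7 had an edgeR adjusted p of 0.0066, NIPAL2 was also called lower (log2 fold change -0.39, adjusted p = 0.011, against 0.087 without the block), and 6.73% of the genes were called lower. In arsenite, NIPAL2 was lower with Y396E by -0.50 (SE 0.13, adjusted p = 0.021), where 4.85% of the genes were called lower. That call was lost without library 1 or 3 of S181E or library 1 or 2 of Y396E. KLK7 was not called in arsenite (-0.28, adjusted p = 0.072), but was called with the authors' filter, with the groups compared alone and by DESeq2, with adjusted p of 0.037, 0.0087 and 0.010. CYP24A1, EPN3 and MKX were not called in either treatment, with log2 differences between -0.25 and 0.29, although CYP24A1 in arsenite was called lower with the groups compared alone (-0.28, edgeR adjusted p = 0.0080). These settings call more genes: in arsenite the fit reported called 656 lower, the authors' filter 805 and the groups compared alone 1964.

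In parental cells, where no mCherry protein was present, the arsenite library gives the RNA that came down without a target. These cells were not engineered, so ratios to them cannot separate the missing mCherry protein from the other differences to the RIP lines. CYP24A1 had 137 CPM there, KLK7 28.1, EPN3 21.6, MKX 18.3 and NIPAL2 9.69. Over this library the wild-type arsenite mean was 8.37-fold for NIPAL2, 5.00-fold for EPN3, 4.39-fold for KLK7, 3.54-fold for CYP24A1 and 1.33-fold for MKX. The median over the 8194 genes was 1.18-fold, and 9.52% of them reached 4-fold. In control, over a far shallower parental library, wild-type CYP24A1 was 2.55-fold and KLK7 2.18-fold over parental, both under the median of 3.25-fold over the same genes, of which 47.9% reached 4-fold.

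Except for MKX, the phosphomimetic means in arsenite were closer to the parental level than the wild-type means. NIPAL2 was 2.92-fold over parental with S181E and 2.02-fold with Y396E, KLK7 1.86 and 1.49-fold, EPN3 1.58 and 1.60-fold, and CYP24A1 1.14 and 0.94-fold. MKX lay below the parental library and further from it than wild-type, at 0.34-fold with S181E and 0.29-fold with Y396E. In control, the parental library had a count of 0 for EPN3, NIPAL2 and MKX at a depth where 3 counts equal 2.02 CPM, so wild-type was at least 24.0-fold higher for EPN3, at least 49.0-fold for NIPAL2 and at least 26.8-fold for MKX, limits that cover counting error only. CYP24A1 and KLK7 were counted there at 174 and 65.5 CPM, above the S181E means of 170 and 60.8 CPM. With 1 parental library per treatment, none of these ratios has a replicate check.

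NIPAL2 lies at chr8:98189826-98294393 (hg38, minus strand), on a chromosome whose genes were low as a group with both phosphomimetic proteins. The 304 genes of chromosome 8 over 10 CPM had a median log2 ratio to wild-type of -0.34 in S181E control, -0.39 in S181E arsenite, -0.37 in Y396E control and -0.43 in Y396E arsenite, and of 0.05 and -0.03 in RQ. On the other chromosomes the medians of these 4 comparisons ranged from -0.22 to 0.15. The low values were those of the 197 genes beyond 45 Mb, about the long arm, with medians of -0.54, -0.56, -0.61 and -0.70, whereas the 107 genes before 45 Mb had medians of 0.15, 0.08, 0.06 and -0.03. Beyond 45 Mb, between 92.9 and 99.0% of the genes lay below wild-type in a comparison.

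Library by library, the chromosome 8 median relative to all other genes lay between -0.42 and -0.29 in the 6 S181E and 6 Y396E libraries, and between -0.02 and 0.06 in the 11 wild-type and RQ libraries. The parental libraries gave 0.22 in control and 0.08 in arsenite. NIPAL2 itself, with log2 ratios of -1.45, -1.52, -1.84 and -2.05, was lower than all but 2, 0, 1 and 0 of the 197 genes. Of its 34 neighbours within 5 Mb, 28 lay below wild-type in all 4 comparisons, against 21.8% of all genes. The part of this shift in the level of NIPAL2 was not tested.

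Within 5 Mb of NIPAL2 the median log2 ratio of the other genes lay between -0.67 and -0.42 in the 4 comparisons, and the neighbourhoods of the other RNAs are set beside it. Within 5 Mb of CYP24A1 (chr20:54153446-54173986, minus strand), 5 of 31 other genes lay below wild-type in all 4 comparisons, within 5 Mb of EPN3 (chr17:50532735-50543750, plus strand) 3 of 50, within 5 Mb of MKX (chr10:27672874-27746060, minus strand) 6 of 19, and within 5 Mb of KLK7 33 of 116, 3 of them at a log2 ratio of -1 or lower in all 4. The median around MKX was -0.57 in Y396E arsenite and between -0.15 and 0.11 in the other comparisons, while those around CYP24A1, EPN3 and KLK7 lay between -0.14 and 0.13. The nearest genes counted in more than traces did not share the low level in the case of CYP24A1, where PFDN4 had log2 ratios between 0.15 and 0.36, or of EPN3, where SPATA20 had ratios between -0.38 and 0.13. Beside MKX, ODAD2, which encodes a protein of the ciliary dynein docking machinery, was low, with ratios between -2.21 and -1.64 from 10.5 CPM in wild-type control, but its RQ control ratio was also -0.88. RAB18, on the other side of MKX, had ratios between -0.57 and 0.40. POP1, next to NIPAL2, had ratios of -1.13 and -0.76 in control and of -0.18 and -0.08 in arsenite.

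KLK7 (chr19:50976468-50984038, minus strand) lies within the kallikrein cluster, where several neighbours were low with the phosphomimetic proteins. Of 12 other tested genes of the list of kallikreins and their inhibitors, 4 were called lower than wild-type in S181E control, 3 in S181E arsenite, 5 in Y396E control and 4 in Y396E arsenite, and none was called higher in these or called at all in RQ. The medians of the list were -0.81, -0.66, -0.90 and -0.67 against 0.05, 0.01, 0.06 and 0.03 for all genes tested, of which 5.68, 3.26, 8.64 and 12.1% were called lower. In RQ, 1.58 and 2.44% of the genes tested were called lower and higher in control, and 0.104 and 0.17% in arsenite. With the replicate number as a block, which over genes above 10 CPM applies to S181E and wild-type in arsenite, 4 genes were called in place of 3. The list was drawn up with the pattern of KLK7 in these libraries known and is not independent evidence.

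KLK5, KLK6 and KLK10, further members of the kallikrein protease family, were lower in all 4 comparisons. KLK10 fell from 108 CPM in wild-type control to 51.1 in S181E, a log2 fold change of -1.07 (SE 0.14). Its log2 fold change was -1.38 in S181E arsenite, -1.17 in Y396E control and -1.46 in Y396E arsenite. KLK10 was named for its level in these same comparisons, so no p is given for it. KLK6, the nearest gene at 6.88 kb, had log2 fold changes between -1.22 and -1.12, and KLK5 between -2.47 and -1.87 from 12.6 CPM in wild-type control. KLK8, 12.0 kb on the other side, was called lower in control only, by -1.02 in S181E and -1.12 in Y396E, and KLK13 with Y396E only, by -0.82 and -0.84. The difference of these calls between treatments or proteins was not tested. The inhibitors SPINT1 and SPINT2 and the protease ST14 were not called. In arsenite, KLK6 was called higher in all 4 lines, by 0.40 to 0.47, while the fold changes of KLK7 lay between -0.28 and -0.16.

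**Figure D4:**
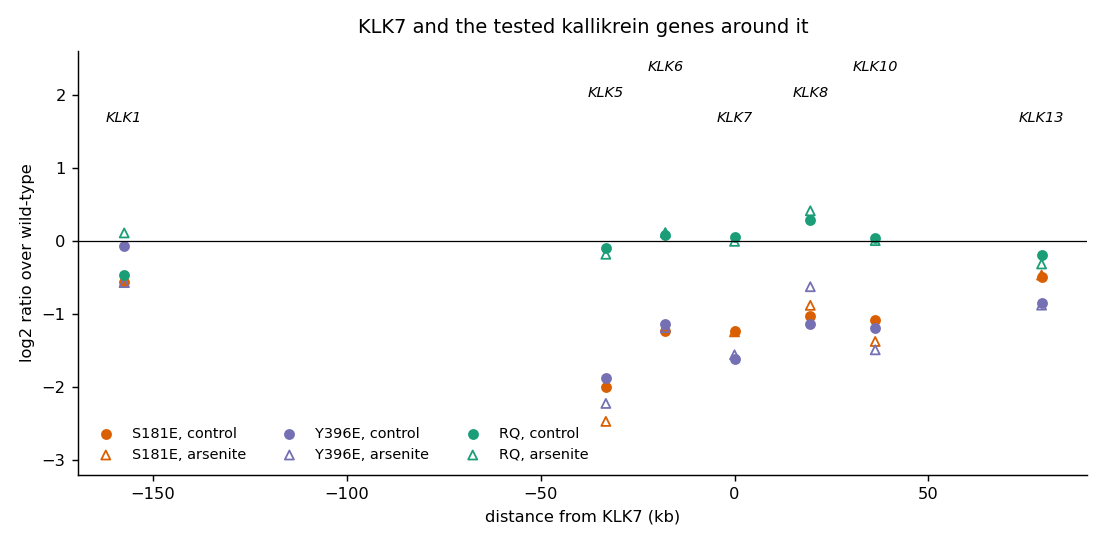
Log2 ratio of mean CPM to wild-type for KLK7 and the tested kallikrein genes above 1 CPM in wild-type control, against the distance of their start from that of KLK7 in kb; colours mark the mutant, filled circles control and open triangles arsenite. From KLK5 to KLK10 the S181E and Y396E points lie below -0.6, and the RQ points of these genes lie between -0.18 and 0.41.

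The other pathway lists were also drawn up around each RNA with its pattern known. Of 13 tested vitamin D pathway genes besides CYP24A1, none was called in S181E control and 1 lower in S181E arsenite. With Y396E, 2 were called lower and 2 higher in control, and 4 lower and 3 higher in arsenite. Of all genes tested, 9.17% were called higher in S181E control, 1.35% in S181E arsenite, 11.5% in Y396E control and 7.89% in Y396E arsenite. In the same order, 5.68, 3.26, 8.64 and 12.1% were called lower. VDR encodes the receptor that drives CYP24A1 transcription. In the RIP its RNA had log2 fold changes of 0.31 and 0.26 with S181E and 0.46 with Y396E in control, none of them called. With Y396E in arsenite it rose by 0.60 (edgeR adjusted p = 0.015). RXRA, its partner, rose by 0.29 there, and the coactivator NCOA3 fell by 0.90. Such RIP levels do not give the expression or activity of the receptor, and its part in the level of CYP24A1 was not tested. In arsenite against control, CYP24A1 was not called in wild-type while 8 of the 13 genes were called higher and 1 lower, with PDIA3 up by 1.41 and RXRA down by 0.69. Over all genes tested, 27.7% were called higher and 24% lower there.

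Of 19 epsin and clathrin genes besides EPN3, 1 was called lower in S181E control and none in S181E arsenite, and with Y396E 1 lower and 5 higher in control and 3 lower and 4 higher in arsenite. EPN1 and EPN2, the closest relatives of EPN3, were not lower. EPN2 rose with Y396E by 0.64 in control and 0.74 in arsenite, and EPN1 was not called. In arsenite against control EPN1 fell in all 4 lines, by 0.40 to 1.01, where EPN3 rose. Of 15 NIPA-family and magnesium transporter genes besides NIPAL2, none was called lower with S181E, 2 were called higher with it in control, and with Y396E 3 were called lower in each treatment and 2 higher in arsenite. Over all genes tested, 5.68% were called lower and 9.17% higher in S181E control, and 3.26 and 1.35% in S181E arsenite. With Y396E the shares were 8.64% lower and 11.5% higher in control, and 12.1 and 7.89% in arsenite.

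Among 14 tested TALE homeobox and tendon genes besides MKX, the counts were 2 lower and 1 higher in S181E control, 3 lower in S181E arsenite, 2 lower and 1 higher in Y396E control and 4 lower in Y396E arsenite. In arsenite no gene of the list was called higher with either protein, and 3.26 and 12.1% of all genes tested were called lower with S181E and Y396E. In control, 5.68% of all genes tested were called lower and 9.17% higher with S181E, and 8.64 and 11.5% with Y396E. The medians of the list in arsenite were -0.19 with S181E and -0.06 with Y396E, against 0.01 and 0.03 over all genes tested. PBX2, a TALE cofactor of HOX proteins, was lower than wild-type in arsenite with S181E (-0.53) and Y396E (-0.59), and PBX3 in arsenite with Y396E (-0.58).

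Over the 23 mCherry libraries, the genes whose log2 CPM followed the mean profile of the 5 RNAs most closely by Pearson's r included YTHDF3 (0.98), KLK10 (0.97), NR2F1 (0.97), FRMD5 (0.96), RB1CC1 (0.95), PDE4B (0.95), PTK2 (0.95), ETV1 (0.95) and SIRPA (0.95). These values describe libraries that fall into separate groups, share wild-type and mutant lines and carry no p. Each of the 5 RNAs is part of the mean profile, and all 5 were chosen by their levels in these libraries. A high r of the 5 RNAs with that profile was therefore built in. Of the 5 RNAs, CYP24A1, KLK7 and NIPAL2 followed that profile with r of 0.98 and MKX with 0.91, while EPN3 reached 0.71, and the lowest correlation within the set was that of MKX and EPN3 (0.37), the RNAs with opposite arsenite responses.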

How the data were processed

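RNA bound to mCherry-IGF2BP1 was measured in 25 RIP-seq libraries. The authors aligned reads to hg38 with STAR 2.7.11b, with a GENCODE annotation and at most 2 mismatches, and took counts per gene over exons, by strand, with featureCounts of Subread 2.0.6. The deposited values are these raw counts for 63086 genes. Reads mapping to several places were not counted, so genes with near-identical copies can be undercounted. Symbols and biotypes came from another GENCODE release by identifier, which 62541 genes matched and 545 did not. The 5 RNAs, the gene lists and the rules for naming genes (the 5 RNAs, called or extreme list members, nearest neighbours, the 10 most similar profiles and the genes at a log2 ratio of -2 or lower) were chosen with earlier results of these data known. A gene that these rules select is not reported here.

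Scaling factors (TMM), CPM and model fits came from edgeR 4.0.16 (R 4.3.3, with limma 3.58.1), the alternative Wald test from DESeq2 1.42.0, and tables and figures from Python 3.11.15, pandas 2.3.3 and matplotlib 3.10.9. The model held 23 mCherry libraries in 8 groups without covariates, and 13515 protein-coding genes kept by filterByExpr. The authors' filter, over 10 CPM in at least 12 libraries, kept 8734 genes and is an alternative. P-values were adjusted by Benjamini-Hochberg over all genes tested. The printed CPM use factors over all 25 libraries, and a parental count of 0 was set to a floor of 3 counts. The test was checked on simulated data. No pair of libraries held identical counts. Fitted log2 fold changes are named as such, and a log2 ratio is that of mean CPM.

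Replicate numbers are shared between groups. Over genes above 10 CPM, same-numbered libraries deviated together with correlations of 0.12 to 0.56 for Y396E and S181E in control and 0.28 to 0.39 for S181E and wild-type in arsenite. The numbers were taken as pairing these groups from this correlation alone, since no label describes a shared batch. Over all genes tested the correlations were only 0.03 to 0.12 and 0.03 to 0.06, and no comparison passed as paired. The fit reported has no block, and the replicate block is an alternative. The alternatives were other scaling, filters and tools, the groups compared alone, the replicate block and leaving out each library. The kallikrein counts under these alternatives were added after seeing the data.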

Additional observations from a re-analysis of the deposited data

Results flagged for a closer look

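The arsenite response of CYP24A1 ran in opposite directions in Y396E and in wild-type or RQ. All wild-type and RQ arsenite libraries lay above their control libraries, with log2 fold changes of 0.11 and 0.31, and all Y396E arsenite libraries lay below theirs, with a log2 fold change of -0.30. The S181E libraries of both treatments overlapped. The wild-type change was not called (edgeR adjusted p = 0.35), and the RQ and Y396E calls were lost without single libraries. Of all genes tested, 30.8% lay above control without overlap in wild-type, 34.4% did so in RQ, and 31.2% lay below in Y396E. The difference between the lines was not tested, because it is built from the same ratios to wild-type that were used to choose CYP24A1.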

How the results depend on the processing

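The arsenite calls of EPN3 and MKX kept their direction and stayed past the threshold in all 4 lines under every alternative tried, with log2 fold changes between 0.88 and 1.58 for EPN3 and between -1.42 and -0.90 for MKX. Of 385 alternative values for the fold changes of the 5 RNAs, 337 kept direction and side of the threshold. The reversed ones were small and not called: CYP24A1 in Y396E against S181E in control was 0.018 with total counts, 0.027 without S181E control replicate 1 and from -0.18 to 0.027 over all fits without 1 library (-0.08 in the fit reported), and EPN3 in Y396E against S181E in arsenite was -0.052 without S181E arsenite replicate 2, -0.0021 without Y396E arsenite replicate 3 and from -0.052 to 0.11 over all fits without 1 library (0.05 in the fit reported). The number of genes called for Y396E against S181E depended most on the setting. In control it was 664, but 157 with only the groups compared, 1227 by the DESeq2 Wald test, 1497 with the replicate block and 87 to 863 without 1 library. In arsenite it was 773, but 3462 with only the groups compared, 1355 by the DESeq2 Wald test, 1659 with the replicate block and 252 to 699 without 1 library. The share of these calls that were lower was 65.8% in control and 84.9% in arsenite, and 33.5 and 72.7% when only total counts scaled the libraries, a scaling that moved the median of all genes by 0.11 and 0.06. Total counts also moved the median ratio of the 5 RNAs in Y396E arsenite from -1.91 to -1.66, while shifting the median of all genes by 0.22. The calls of NIPAL2 in wild-type arsenite, KLK7 in RQ arsenite and KLK7 in Y396E against S181E in control were also lost with total counts, without a filter and with only the groups compared, and that of CYP24A1 in RQ arsenite with only the groups compared. Apart from the comparisons whose numbers paired the libraries, at least 1 same-numbered pair correlated at 0.1 or less over genes above 10 CPM, or only 2 pairs existed, although in Y396E against S181E in arsenite all 6 libraries correlated best with their own number. The replicate block added NIPAL2 in control and KLK7 in arsenite (log2 fold change -0.28, adjusted p = 0.032) to the calls of Y396E against S181E and changed no other call of the 5 RNAs. DESeq2 added the same calls, with adjusted p of 0.034 and 0.010, and NIPAL2 in control was also called without Y396E control replicate 3 (adjusted p = 0.046). All 52 alternative counts for the kallikrein list stayed within 1.5 times the reported count. The shallow parental control library limits the ratios to it.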

Other observations

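Of the 29 genes at a log2 ratio of -1 or lower in all 4 phosphomimetic comparisons, 9 lie on chromosome 8 (31.0%, against 3.71% of the genes over 10 CPM), and all 9 of them beyond 45 Mb. Besides NIPAL2 these are PABPC1, CHD7, UBXN2B, ZFHX4, PDE7A, RB1CC1, SQLE and MROH6. Their median log2 ratios over the 4 comparisons ran from -1.70 for PABPC1, the cytoplasmic poly(A)-binding protein, to -1.08 for MROH6. AREG, an EGF receptor ligand on another chromosome, chosen after its values were seen, had a median of -1.15 and was higher than wild-type in RQ, with log2 ratios of 0.52 and 0.53. YTHDF3, a reader of m6A whose profile was closest to the mean of the 5 RNAs, also lies on chromosome 8 beyond 45 Mb, and had log2 ratios between -1.21 and -0.93.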
